A study of Ovis aries with 6 samples.

Results

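Integrins, cadherins, claudins, connexins and catenins hold cells to matrix and to each other, and their genes were followed in estrous sheep ovaries through 6 RNA-seq libraries. Members were the rows of the gene table whose symbol named an integrin alpha or beta subunit, a numbered cadherin or a protocadherin, a claudin, a connexin or a catenin, with the row of highest mean level kept per symbol. The rule chose symbols without any measured value, and used the mean level only to pick the row where rows shared a symbol. It gave 53 genes of 14480 rows: 15 integrin alpha subunits, 7 integrin beta subunits, 9 cadherins, 9 protocadherins, 3 claudins, 5 connexins and 5 catenins. The groups were Hu sheep, a Chinese breed known for large litters, with 3 libraries, and Mongolian sheep, whose ewes usually carry a single lamb, also with 3 libraries. The labels give no age, treatment or allele for either breed, and they do not say whether replicates were separate animals. All libraries were made from polyadenylated RNA of ovary with a SMARTer kit, while the series title speaks of exosomes, so the values are described as ovary values.

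Integrins are pairs of an alpha and a beta subunit that span the membrane, bind matrix proteins such as fibronectin, collagen and laminin outside the cell, and connect to actin inside it through talin, vinculin and related adaptors. Cadherins bind like cadherins on the neighbouring cell, and catenins tie their inner tails to actin; beta-catenin is also the messenger of WNT signalling. Claudins form the strands of tight junctions, and connexins form the channels of gap junctions. In the follicle, granulosa cells are joined to one another and to the oocyte by gap junctions, and cadherins and integrins hold the granulosa layer together and to its basement membrane.

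Levels were given as FPKM, a fragment count scaled by transcript length and library total, and no read depth is known. Values of a breed are listed as replicates 1, 2 and 3. The Hu libraries listed very different numbers of genes above 0 FPKM, between 6500 and 13342, and the Mongolian libraries between 10547 and 11463. Genes that every cell uses also stand at 0 in some libraries, so a value of 0 is described only as listed at 0. Of the 53 genes, 23, 26 and 49 were listed above 0 in Hu 1, Hu 2 and Hu 3, against 34, 44 and 35 in Mongolian 1, 2 and 3. As percentages these were 43.4, 49.1 and 92.5 in Hu and 64.2, 83.02 and 66.04 in Mongolian, beside 44.9, 55.05 and 92.1 in Hu and 72.8, 79.2 and 73.2 in Mongolian for all rows. The adhesion genes thus followed each library's own listing, low in Hu 1 and Hu 2 and high in Hu 3. Ovarian somatic markers were present, with 7 of 12 granulosa and 8 of 10 stroma markers listed. Granulosa markers summed to 269.6, 54.99 and 148 FPKM in Hu ovaries, against 83.9, 65.8 and 127 FPKM in Mongolian ovaries. Most of each granulosa sum came from INHA, SERPINE2 and INHBA. Stroma markers summed to 973, 1168 and 1052 FPKM in Hu ovaries, against 982, 955 and 892 FPKM in Mongolian ovaries. Of 12 oocyte markers 3 were listed. KIT reached up to 1.29 FPKM in Hu and 1.06 FPKM in Mongolian. ZP3 was listed at 0.324 FPKM in Hu 3 and 0.386 FPKM in Mongolian 3, and GDF9 in Mongolian 3 alone, at 0.502 FPKM.

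**Figure D1:**
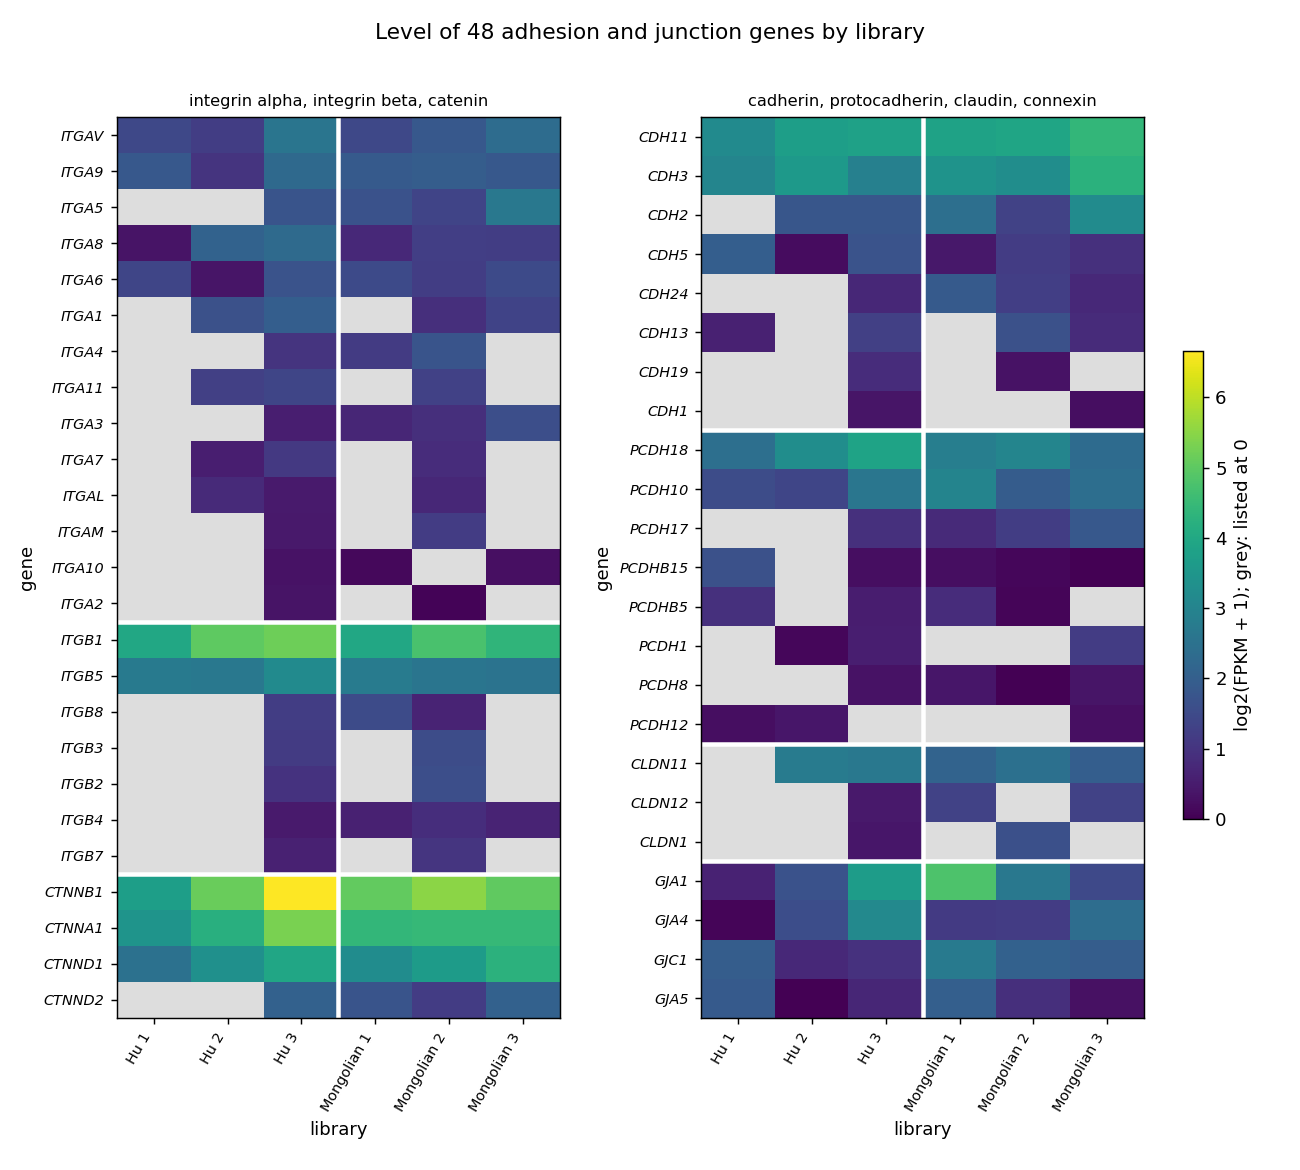
Level of the 48 genes listed above 0 in at least 2 libraries (rows, grouped by family, highest mean at the top of each family) in each library (columns), as log2(FPKM + 1), with grey where the gene was listed at 0. CTNNB1, CTNNA1, ITGB1, CDH11 and CDH3 are listed in every column, and the grey cells gather in Hu 1 and Hu 2.

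The series compares ovaries of breeds that differ in reproductive capacity. No member passed the test: 31 of the 53 were abundant enough to test (at least 0.5 FPKM in at least 3 libraries), and 0 of the 31 reached a Benjamini-Hochberg adjusted p below 0.05 in limma, as for all 9971 genes tested (0%). The adjusted p of the members lay between 0.998 and 0.9998, all 31 of the 95% confidence intervals of the log2 difference held 0, and the narrowest interval still reached 0.94 to either side. At an unadjusted p under 0.05 the members numbered 0 as well, against 0.913% of all genes tested higher in Hu, 2.82% lower in Hu and 3.73% in either direction. Of the 31, 8 had a positive log2 difference (Hu minus Mongolian, on log2(FPKM + 1)) and 23 a negative one, with a median of -0.33, beside -0.28 over all genes tested, of which 32.3% were positive. The members' median was -0.71 without Hu 3 and -0.13 without Hu 2, beside -0.66 and -0.18 over all genes, and without Hu 1 it was -0.26, beside 0.014 over all genes. The count of positive members was 9 after median-of-ratios scaling, 12 with libraries rescaled to equal sums and 14 after quantile normalization, where the median of all genes was -0.23, -0.085 and 0.019. Rescaling to equal sums rests largely on the 2 most abundant rows of each library, which held 53.3% to 79.7% of its summed FPKM. Within a breed, the members' log2 values had a median SD of 0.665, beside 0.797 for all genes tested.

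The breeds overlapped in 26 of the 31 tested members. In the other 5, CDH11, GJC1, CDH24, ITGA3 and ITGB4, every Hu value lay below every Mongolian value, a share of 16.1%, beside 6.05% of all genes tested; in 0 members did every Hu value lie above, beside 1.88%; in either direction the share of all genes was 7.92%. The comparison of ranges was added after the values were seen. The filter on low values asked for 0.5 FPKM in any 3 libraries. Of the 31, 11 reached this level in all 3 Mongolian libraries but in fewer than 3 Hu libraries, and 0 the other way round. The same split was not counted over all genes tested, so it is a description only. Of all genes tested, 61, 74.1 and 99.3% were listed above 0 in Hu 1, 2 and 3. The shares in Mongolian 1, 2 and 3 were 93, 96.3 and 91.6%. Among the 11, ITGA3 and ITGB4 reached it in Mongolian libraries alone. Of the 5 members, CDH24, ITGA3 and ITGB4 belong to these 11, so the filter partly fixed their position, and the share of 16.1% is given as a description only; CDH11 and GJC1 reached the minimum in all 6 libraries. The members without overlap changed with the scaling. Those with every Hu value below were CDH24, ITGA3, ITGB4, ITGA5 and PCDH17 after median-of-ratios scaling (8.22% of all genes tested), ITGA3 and ITGB4 after rescaling to equal sums (3.81%), and ITGA5 after quantile normalization (5.61%), which ranks tied zeros at their middle. Members with every Hu value above numbered 0 after median-of-ratios scaling, while rescaling to equal sums gave ITGB5 (4.33% of all genes) and quantile normalization gave CDH5 and ITGA8 (5.48%). Without Hu 3, 12 members lay below, beside 32% of all genes tested. Without Hu 1, 5 lay below, beside 7.6%, and CLDN11, ITGA1, ITGA8, ITGB1 and PCDH18 lay above, beside 10.2%.

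**Figure D2:**
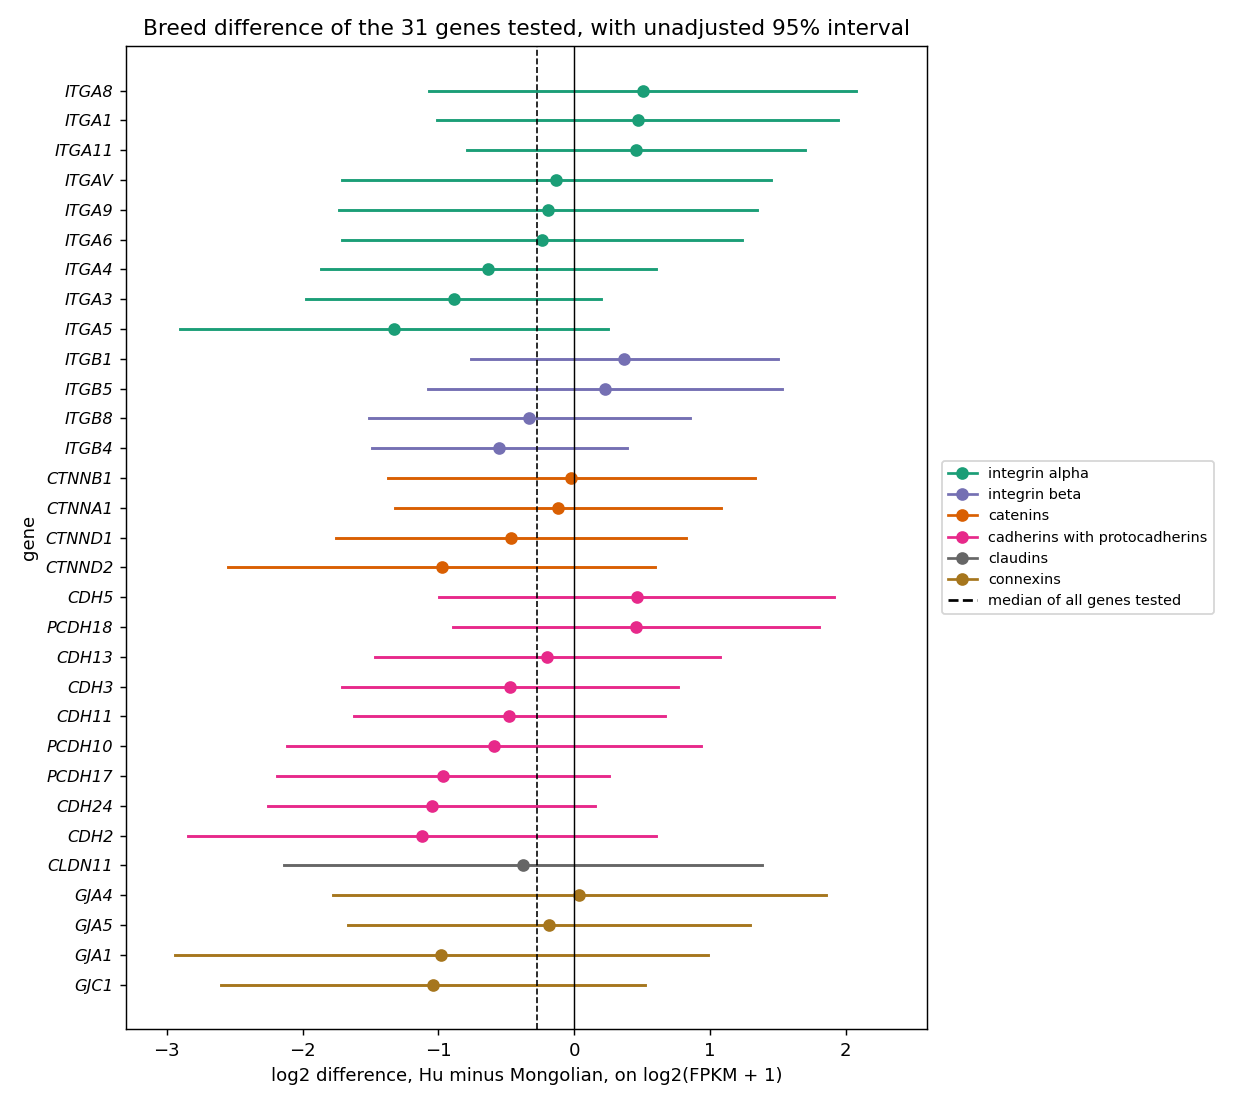
Log2 difference (Hu minus Mongolian, on log2(FPKM + 1)) of the 31 genes tested, with its unadjusted 95% interval; colours mark the family, and the dashed line is the median of all 9971 genes tested, at -0.28. Every interval crosses 0.

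Among the integrin beta subunits, ITGB1 (ENSOARG00000017638), the shared partner of most matrix-binding alpha subunits, was the leading gene in every library. It stood at 14.9, 30.9 and 35.8 FPKM in Hu ovaries, against 14.8, 25.7 and 19.4 FPKM in Mongolian ovaries, and held 64.3% to 85.1% of the family's summed FPKM in each library. Hu 2 and Hu 3 were above all Mongolian libraries and Hu 1 was level with the lowest of them. Its log2 difference was 0.37 (95% interval -0.76 to 1.499). ITGB5, which pairs with ITGAV in a vitronectin receptor, had the smallest range over all 6 libraries together among the 18 members listed in each: it stood at 5.53, 5.405 and 8.103 FPKM in Hu ovaries, against 5.85, 5.003 and 4.79 FPKM in Mongolian ovaries, a range of 1.499-fold within Hu and 1.22-fold within Mongolian. This gave a log2 difference of 0.23 (95% interval -1.08 to 1.53).

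The remaining beta subunits were scarce. ITGB4, which joins ITGA6 in the laminin receptor of hemidesmosomes, was listed at 0 in Hu 1 and Hu 2 and stood at 0, 0 and 0.404 FPKM in Hu ovaries, against 0.523, 0.843 and 0.573 FPKM in Mongolian ovaries. Its log2 difference was -0.55 (95% interval -1.49 to 0.39), and that of ITGB8, another partner of ITGAV, was -0.33 (95% interval -1.51 to 0.85). ITGB8 stood at 0, 0 and 1.302 FPKM in Hu ovaries, against 1.87, 0.591 and 0 FPKM in Mongolian ovaries, so both breeds held a library at 0. ITGB2, ITGB3 and ITGB7, subunits of leukocyte, platelet and lymphocyte integrins, were listed in Hu 3 and Mongolian 2 and at 0 in the other libraries, and ITGB3 stood at 1.23 FPKM in Hu 3 and 1.95 in Mongolian 2.

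No alpha subunit approached the level of ITGB1. The sum of 12 alpha subunits that pair with ITGB1 was 6.21, 9.86 and 25.1 FPKM in Hu ovaries, against 11.2, 16.03 and 18.9 FPKM in Mongolian ovaries, so ITGB1 alone exceeded them in every library. The ratio of ITGB1 to that sum was 2.395, 3.13 and 1.43 in Hu ovaries and 1.33, 1.604 and 1.03 in Mongolian ovaries, with overlap between breeds. The leading alpha subunit differed from library to library: it was ITGA9, ITGA8 and ITGAV in Hu 1, 2 and 3, and ITGA9, ITGA9 and ITGA5 in Mongolian 1, 2 and 3.

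ITGAV, the alpha subunit of vitronectin receptors, stood at 1.71, 1.297 and 5.06 FPKM in Hu ovaries, against 1.74, 2.55 and 4.09 FPKM in Mongolian ovaries, and Hu 3 and Mongolian 3 were the high libraries. ITGA9, which binds tenascin, stood at 2.57, 0.996 and 3.87 FPKM in Hu ovaries, against 2.702, 2.91 and 2.59 FPKM in Mongolian ovaries, and was nearly level within Mongolian while Hu spread 3.88-fold. Their log2 differences were -0.13 (95% interval -1.71 to 1.45) for ITGAV and -0.19 (95% interval -1.73 to 1.34) for ITGA9. ITGA5, which with ITGB1 forms the main fibronectin receptor, stood at 0, 0 and 2.29 FPKM in Hu ovaries, against 2.18, 1.57 and 5.34 FPKM in Mongolian ovaries. It was listed at 0 in Hu 1 and Hu 2, and Hu 3 lay inside the Mongolian range. For ITGA5, the log2 difference came to -1.33 (95% interval -2.90 to 0.25), the lowest among the members.

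ITGA3, a laminin-binding subunit, repeated this listing at a lower level, with 0, 0 and 0.466 FPKM in Hu ovaries, against 0.653, 0.863 and 2.01 FPKM in Mongolian ovaries. The fitted log2 difference was -0.89 (95% interval -1.97 to 0.20). ITGA4, the subunit that binds VCAM1 and fibronectin and is best known from leukocytes, was listed in 1 Hu and 2 Mongolian libraries: it stood at 0, 0 and 1.001 FPKM in Hu ovaries, against 1.23, 2.33 and 0 FPKM in Mongolian ovaries, a log2 difference of -0.63 (95% interval -1.87 to 0.60). Among collagen-binding subunits, ITGA1 stood at 0, 2.15 and 2.95 FPKM in Hu ovaries, against 0, 0.859 and 1.52 FPKM in Mongolian ovaries, and ITGA11 at 0, 1.39 and 1.63 FPKM in Hu ovaries, against 0, 1.43 and 0 FPKM in Mongolian ovaries, with the breeds overlapping in both.

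ITGA8, a receptor subunit for nephronectin, stood at 0.285, 3.24 and 3.89 FPKM in Hu ovaries, against 0.717, 1.34 and 1.32 FPKM in Mongolian ovaries; Hu 2 and Hu 3 were the 2 highest of the 6 libraries and Hu 1 the lowest. ITGA6, the laminin-binding partner of ITGB4, stood at 1.64, 0.303 and 2.27 FPKM in Hu ovaries, against 1.84, 1.31 and 1.81 FPKM in Mongolian ovaries, with Hu 2 lowest. Of the 9 alpha subunits tested, 3 had a positive log2 difference as deposited and after median-of-ratios scaling, 5 with libraries rescaled to equal sums and 6 after quantile normalization. The 6 alpha subunits below the filter were ITGA2, ITGA7, ITGA10, ITGAL, ITGAM and ITGAX, which reached 1.14 FPKM at most in any Hu library and 1.29 in Mongolian.

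Integrins best known from blood cells were listed mostly in Hu 3 and Mongolian 2, the libraries that listed the most genes above 0 (13342 and 11463). The genes ITGAL, ITGAM, ITGAX, ITGB2, ITGB7 and ITGA4, all of leukocyte integrins, together summed to 0, 0.745 and 3.25 FPKM in Hu ovaries, against 1.23, 7.704 and 0 FPKM in Mongolian ovaries. Mongolian 2 was highest and Hu 3 next, and Hu 1 and Mongolian 3 listed none of the 6. Listing in Hu 3 and Mongolian 2 alone was found for 7 of the 53 genes (13.2%), beside 3.71% of all rows. Besides ITGAM, ITGB2, ITGB3 and ITGB7 these were CDH19, CLDN1 and ITGA2. All rows are not matched to these genes for level, so the shares are given as a description only. Leukocyte markers, of which 8 of 14 were listed, summed to 4.62, 2.85 and 6.43 FPKM in Hu ovaries, against 6.92, 11.5 and 3.87 FPKM in Mongolian ovaries. Macrophage markers, of which 10 of 12 were listed, summed to 16.2, 66.02 and 34.6 FPKM in Hu ovaries, against 18.6, 89.9 and 9.92 FPKM in Mongolian ovaries. Mongolian 2 was highest in both sums, while Hu 2, second in macrophage markers, held ITGAL alone of these integrins. LCP1, the most abundant leukocyte marker, stood at 3.41, 1.95 and 2.33 FPKM in Hu ovaries, against 2.54, 2.88 and 0 FPKM in Mongolian ovaries. PTPRC, the next by level and the only leukocyte marker listed in Mongolian 3, stood at 1.22, 0 and 1.36 FPKM in Hu ovaries, against 2.15, 3.96 and 3.87 FPKM in Mongolian ovaries, and CD68, a macrophage gene, at 4.93, 19.3 and 7.42 FPKM in Hu ovaries, against 6.01, 29.1 and 3.57 FPKM in Mongolian ovaries. The part of leukocyte content in the integrin values was not tested, and in bulk tissue fewer cells of a type and less RNA per cell cannot be told apart.

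Genes of the proteins that connect integrins to actin were abundant. Of 25 on a list of such adaptors, 21 were found, 18 were tested, 5 had a positive and 13 a negative log2 difference, and 0 were called; the positive ones numbered 8 after rescaling to equal sums, 9 without Hu 1 and 0 without Hu 3. The most abundant were ZYX, ACTN4, TLN1 and ACTN1, for zyxin, an alpha-actinin, talin and another alpha-actinin. TLN1 stood at 15.6, 18.05 and 29.9 FPKM in Hu ovaries, against 19.9, 16.4 and 34.5 FPKM in Mongolian ovaries, and ZYX at 17.7, 25.1 and 46.1 FPKM in Hu ovaries, against 35.5, 32.9 and 34.6 FPKM in Mongolian ovaries. ACTN4 and ACTN1 stood at 14.1 to 33.2 FPKM in Hu and at 13.1 to 43.8 FPKM in Mongolian. PXN, for the focal adhesion adaptor paxillin, was picked out after its values were seen. It stood at 2.47, 2.69 and 5.28 FPKM in Hu ovaries, against 13.8, 7.87 and 21.8 FPKM in Mongolian ovaries. Every Hu value of PXN lay below every Mongolian value, as for 6.05% of all genes tested. The limma adjusted p of PXN was 0.998, and its separation was not followed through the rescalings.

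**Figure D3:**
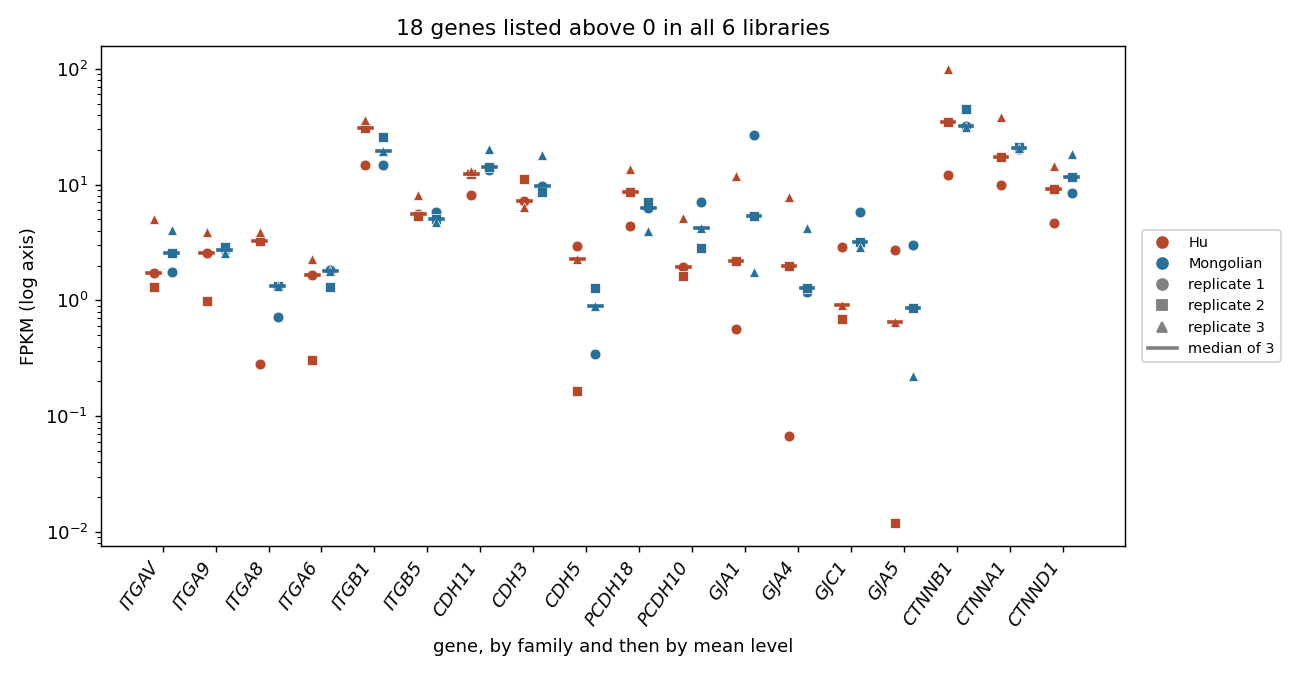
FPKM (log axis) of the 18 genes listed above 0 in all 6 libraries; each point is a library, its shape the replicate number, and the bar the median of the 3 libraries of a breed. ITGB5 lies in the narrowest band, whereas the connexins GJA1, GJA4 and GJA5, and also CDH5 and ITGA8, spread over more than a factor of 10 within Hu.

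CDH11 and CDH3 made up most of the cadherin signal. CDH11 (ENSOARG00000001829), a cadherin of mesenchymal and stromal cells, led the family in every library, with 41.1% to 48.3% of its summed FPKM. It stood at 8.16, 12.2 and 13.1 FPKM in Hu ovaries, against 13.3, 14.1 and 20.2 FPKM in Mongolian ovaries, so that the highest Hu library lay just under the lowest Mongolian one. On the log2 scale CDH11 differed by -0.48 (95% interval -1.62 to 0.67). The means were 11.2 ± 2.63 FPKM in Hu and 15.9 ± 3.73 FPKM in Mongolian (SD, n = 3 each). The breeds overlapped in CDH11 after each rescaling tried.

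CDH3, the cadherin first described in placenta, stood at 7.17, 11.1 and 6.46 FPKM in Hu ovaries, against 9.71, 8.58 and 18.2 FPKM in Mongolian ovaries, and Mongolian 3 was its high library. Its log2 difference was -0.47 (95% interval -1.71 to 0.77). The ratio of CDH11 to CDH3 cannot be changed by scaling with 1 factor per library, though quantile normalization can change it. As deposited, this ratio was 1.14, 1.099 and 2.02 in Hu ovaries and 1.37, 1.65 and 1.11 in Mongolian ovaries, again with overlap. CDH1, the cadherin of epithelia, is separated from CDH3 by 1 gene in the RefSeq annotation of sheep assembly ARS-UI_Ramb_v3.0, and it was listed in 2 libraries, at 0.301 FPKM in Hu 3 and 0.186 in Mongolian 3. Epithelial markers, of which 8 of 15 were listed (CDH1 among them), summed to 1.92, 0.3397 and 12.5 FPKM in Hu ovaries, against 4.52, 4.66 and 32.96 FPKM in Mongolian ovaries. KRT8, a keratin gene, stood at 0.768, 0 and 10.99 FPKM in Hu ovaries, against 3.14, 3.32 and 28.4 FPKM in Mongolian ovaries, with Hu 3 and Mongolian 3 high, and made up most of the sum in both. KRT18, its keratin partner, was listed at 0 in both of these libraries, and EPCAM was listed in Mongolian 3 alone; the part of epithelial content in the CDH1 values was not tested.

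CDH2, the cadherin that joins granulosa cells, stood at 0, 2.47 and 2.47 FPKM in Hu ovaries, against 4.37, 1.497 and 8.19 FPKM in Mongolian ovaries; it was listed at 0 in Hu 1, and Mongolian 3 and Mongolian 1 were highest. This gave a log2 difference of -1.12 (95% interval -2.84 to 0.61). In Hu 1, where CDH2 was listed at 0, the granulosa markers GATM, HSD17B1 and FSHR were also listed at 0, while INHA, SERPINE2 and INHBA, which made up most of the granulosa sum there, were at 99.1, 82.2 and 82.96 FPKM, the highest of the 6 libraries for each. The part of granulosa content in the CDH2 values was not tested. CDH5, the cadherin of endothelium, stood at 2.95, 0.165 and 2.29 FPKM in Hu ovaries, against 0.347, 1.28 and 0.892 FPKM in Mongolian ovaries, with Hu 1 and Hu 3 high and Hu 2 lowest of all. PECAM1, another endothelial gene, stood at 5.23, 2.24 and 8.36 FPKM in Hu ovaries, against 1.04, 2.32 and 0.906 FPKM in Mongolian ovaries. The endothelial markers did not share 1 order within Hu: PECAM1 and VWF were lowest in Hu 2, as CDH5 was, PROX1 and KDR were lowest in Hu 1, and LYVE1 and FLT4 were highest in Hu 2. Endothelium markers, of which 11 of 13 were listed (CDH5 among them), summed to 21.1, 25.6 and 45.7 FPKM in Hu ovaries, against 11.97, 23.1 and 12.5 FPKM in Mongolian ovaries; their part in the CDH5 values was not tested.

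CDH24, a cadherin that binds alpha and beta catenins, stood at 0, 0 and 0.664 FPKM in Hu ovaries, against 2.72, 1.34 and 0.692 FPKM in Mongolian ovaries, a log2 difference of -1.05 (95% interval -2.25 to 0.15). With Hu 1 and Hu 2 listed at 0 and Hu 3 just under Mongolian 3, its separation rested on values near the filter. CDH13, a cadherin anchored to the membrane by a lipid, stood at 0.534, 0 and 1.39 FPKM in Hu ovaries, against 0, 2.16 and 0.752 FPKM in Mongolian ovaries. CDH6 was listed in Hu 3 alone, at 1.89 FPKM, and CDH19 reached 0.793 FPKM in Hu 3 and 0.263 in Mongolian 2.

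Of 9 protocadherins, a branch of the cadherin family best known from neurons, PCDH18 and PCDH10 were listed in all 6 libraries. PCDH18 stood at 4.39, 8.58 and 13.7 FPKM in Hu ovaries, against 6.23, 7.14 and 4.002 FPKM in Mongolian ovaries, with Hu 3 highest and Mongolian 3 lowest. For PCDH18, the log2 difference came to 0.45 (95% interval -0.89 to 1.80). PCDH10 stood at 1.95, 1.63 and 5.13 FPKM in Hu ovaries, against 7.06, 2.83 and 4.25 FPKM in Mongolian ovaries, and PCDH17 at 0, 0 and 0.899 FPKM in Hu ovaries, against 0.727, 1.31 and 2.54 FPKM in Mongolian ovaries, where Hu 1 and Hu 2 were listed at 0. The fitted log2 difference was -0.96 (95% interval -2.19 to 0.26). The other 6 were below the filter. PCDHB15 reached 2.16 FPKM in Hu 1 and no more than 0.194 FPKM in any other library, and PCDHB5, a gene of the same cluster, 0.895 FPKM in Hu 1; genes of that cluster are near copies, so reads may be split between them and the values are uncertain. PCDH1, PCDH8, PCDH12 and PCDH19 reached 0.487 FPKM at most in any Hu library and 1.25 in Mongolian. Over cadherins and protocadherins together, 2 of 9 tested genes had a positive log2 difference, CDH5 and PCDH18, a count that was 2 after median-of-ratios scaling, 2 with libraries rescaled to equal sums and 3 after quantile normalization.

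The catenins were the most abundant family. CTNNB1 (ENSOARG00000002885), beta-catenin, stood at 12.2, 34.5 and 100.1 FPKM in Hu ovaries, against 32.3, 44.7 and 31.5 FPKM in Mongolian ovaries; Hu 3 was highest and Hu 1 lowest of all 6, an 8.204-fold range within Hu beside 1.42-fold within Mongolian. On the log2 scale CTNNB1 differed by -0.021 (95% interval -1.37 to 1.33), and its sign turned after median-of-ratios scaling and after rescaling to equal sums. CTNNA1, alpha-catenin, which links beta-catenin to actin, stood at 9.84, 17.4 and 38.6 FPKM in Hu ovaries, against 20.2, 20.9 and 20.9 FPKM in Mongolian ovaries. The Mongolian libraries lay within 1.04-fold, and the Hu libraries straddled them with a 3.92-fold range. Its log2 difference was -0.12 (95% interval -1.32 to 1.08), with the same turns of sign.

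The ratio of CTNNB1 to CTNNA1 within a library was 1.24, 1.98 and 2.59 in Hu ovaries and 1.602, 2.14 and 1.51 in Mongolian ovaries, so Hu held both the lowest and the highest ratio. CTNND1, the catenin that keeps cadherins at the cell surface, stood at 4.63, 9.17 and 14.4 FPKM in Hu ovaries, against 8.45, 11.6 and 18.5 FPKM in Mongolian ovaries, with Mongolian 3 highest and Hu 1 lowest. This gave a log2 difference of -0.46 (95% interval -1.75 to 0.82). CTNND2, its relative known from neurons, stood at 0, 0 and 3.18 FPKM in Hu ovaries, against 2.31, 1.28 and 3.23 FPKM in Mongolian ovaries. It was listed at 0 in Hu 1 and Hu 2, while Hu 3 was level with the highest Mongolian library, and its log2 difference was -0.98 (95% interval -2.55 to 0.60). CTNNA2, the neuronal alpha-catenin, was listed in Mongolian 1 alone, at 0.879 FPKM. Of 4 catenins tested, 0 had a positive log2 difference as deposited or after quantile normalization, and 2 after median-of-ratios scaling or rescaling to equal sums. The summed FPKM of the catenins was 26.7, 61.1 and 156 FPKM in Hu ovaries, against 64.1, 78.5 and 74.1 FPKM in Mongolian ovaries.

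Partners of these cadherin and catenin complexes, with desmosome genes, numbered 24 on the list, of which 14 were listed in the table, 10 were tested and 0 were called; 2 of the 10 had a positive log2 difference, and 4 after quantile normalization. VCL, for vinculin, stood at 5.99, 5.702 and 13.6 FPKM in Hu ovaries, against 11.2, 10.8 and 17.9 FPKM in Mongolian ovaries, and JUP, for plakoglobin, a relative of beta-catenin that also serves desmosomes, at 8.699, 2.92 and 12.3 FPKM in Hu ovaries, against 4.903, 3.1996 and 10.8 FPKM in Mongolian ovaries. PLEKHA7 and AFDN, of the adherens junction belt, stood at 3.16 to 6.04 FPKM in Hu and 3.38 to 11.1 FPKM in Mongolian, overlapping between breeds.

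Claudins were few. CLDN11 (ENSOARG00000000208), known from Sertoli cells of the testis and from myelin, carried most of the claudin signal and stood at 0, 5.81 and 5.33 FPKM in Hu ovaries, against 3.38, 4.46 and 2.94 FPKM in Mongolian ovaries. Hu 2 and Hu 3 lay above every Mongolian library and Hu 1 was listed at 0, so the breeds overlapped through that library. For CLDN11, the log2 difference came to -0.38 (95% interval -2.14 to 1.39); without Hu 1 it was 0.53. CLDN12 stood at 0, 0 and 0.378 FPKM in Hu ovaries, against 1.51, 0 and 1.4998 FPKM in Mongolian ovaries, and CLDN1, a claudin of epithelia, was listed in Hu 3 at 0.316 FPKM and in Mongolian 2 at 2.11 FPKM. The RefSeq annotation of the named assembly holds 23 claudin symbols, so 20 were not analysed here; among the connexins 5 of 20 were.

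Scaffolds and other membrane proteins of tight junctions were on a list of 22 genes, of which 18 were listed, 12 tested and 0 called. Of the 12, 2 had a positive log2 difference, and 7 after quantile normalization. The most abundant were PARD3, TJP1, MPDZ and CGNL1. TJP1, the scaffold that ties claudins and connexins to actin, stood at 7.84, 9.099 and 9.96 FPKM in Hu ovaries, against 11.4, 8.21 and 16.9 FPKM in Mongolian ovaries, and PARD3, a cell polarity scaffold, at 5.84, 6.12 and 24.2 FPKM in Hu ovaries, against 12.7, 15.8 and 27.1 FPKM in Mongolian ovaries. MPDZ and CGNL1 stood at 2.39 to 13.6 FPKM in Hu and 4.63 to 9.76 FPKM in Mongolian.

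Among the connexins, GJA1 and GJA5 were uneven within both breeds, and GJA4 and GJC1 more so within Hu. GJA1 (ENSOARG00000019963), the main connexin between granulosa cells, stood at 0.566, 2.201 and 11.8 FPKM in Hu ovaries, against 26.7, 5.39 and 1.75 FPKM in Mongolian ovaries. Mongolian 1 was highest and Hu 1 lowest, a 20.8-fold range within Hu and a 15.2-fold range within Mongolian. The fitted log2 difference was -0.98 (95% interval -2.94 to 0.99); without Mongolian 1 it was -0.07. INHA, an inhibin subunit gene of granulosa cells, stood at 99.1, 15.6 and 45.2 FPKM in Hu ovaries, against 25.9, 15.8 and 40.4 FPKM in Mongolian ovaries, highest in Hu 1, where GJA1 was lowest. GATM, another granulosa marker, was listed at 0 in Hu 1, as were HSD17B1 and FSHR, and the part of granulosa content in the GJA1 values was not tested.

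GJA4, the connexin that couples the oocyte to its granulosa cells in mouse and is also present in arteries, stood at 0.0676, 1.99 and 7.82 FPKM in Hu ovaries, against 1.19, 1.28 and 4.22 FPKM in Mongolian ovaries, with Hu 3 and Mongolian 3 high and Hu 1 near 0. On the log2 scale GJA4 differed by 0.038 (95% interval -1.78 to 1.85). GJC1, a connexin of smooth muscle and heart, stood at 2.901, 0.695 and 0.916 FPKM in Hu ovaries, against 5.74, 3.17 and 2.91 FPKM in Mongolian ovaries. The highest Hu library, Hu 1, was level with the lowest Mongolian one, and the values did not overlap as deposited, though they did after each scaling between libraries. Its log2 difference was -1.04 (95% interval -2.60 to 0.52), and means were 1.504 ± 1.21 FPKM in Hu and 3.94 ± 1.56 FPKM in Mongolian (SD, n = 3 each).

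GJA5, a connexin of arterial endothelium and heart, stood at 2.71, 0.01203 and 0.646 FPKM in Hu ovaries, against 3.01, 0.853 and 0.225 FPKM in Mongolian ovaries; replicate 1 was the highest library in each breed. This gave a log2 difference of -0.19 (95% interval -1.67 to 1.29). The ratio of GJA1 to GJC1 within a library was 0.195, 3.17 and 12.8 in Hu ovaries and 4.66, 1.6998 and 0.603 in Mongolian ovaries. Of 8 symbols of pannexins and gap junction partners 5 were listed and tested and 0 were called; 2 of the 5 had a positive log2 difference, and 1 after median-of-ratios scaling. DBN1, for drebrin, which binds a connexin tail, stood at 5.04, 7.26 and 14.6 FPKM in Hu ovaries, against 16.1, 13.5 and 15.2 FPKM in Mongolian ovaries, and PANX1, a channel protein akin to connexins, at 0, 0 and 1.09 FPKM in Hu ovaries, against 1.53, 1.42 and 3.35 FPKM in Mongolian ovaries. CNST, for consortin, reached 3.58 FPKM in its highest Hu library and 2.99 FPKM in its highest Mongolian library.

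**Figure D4:**
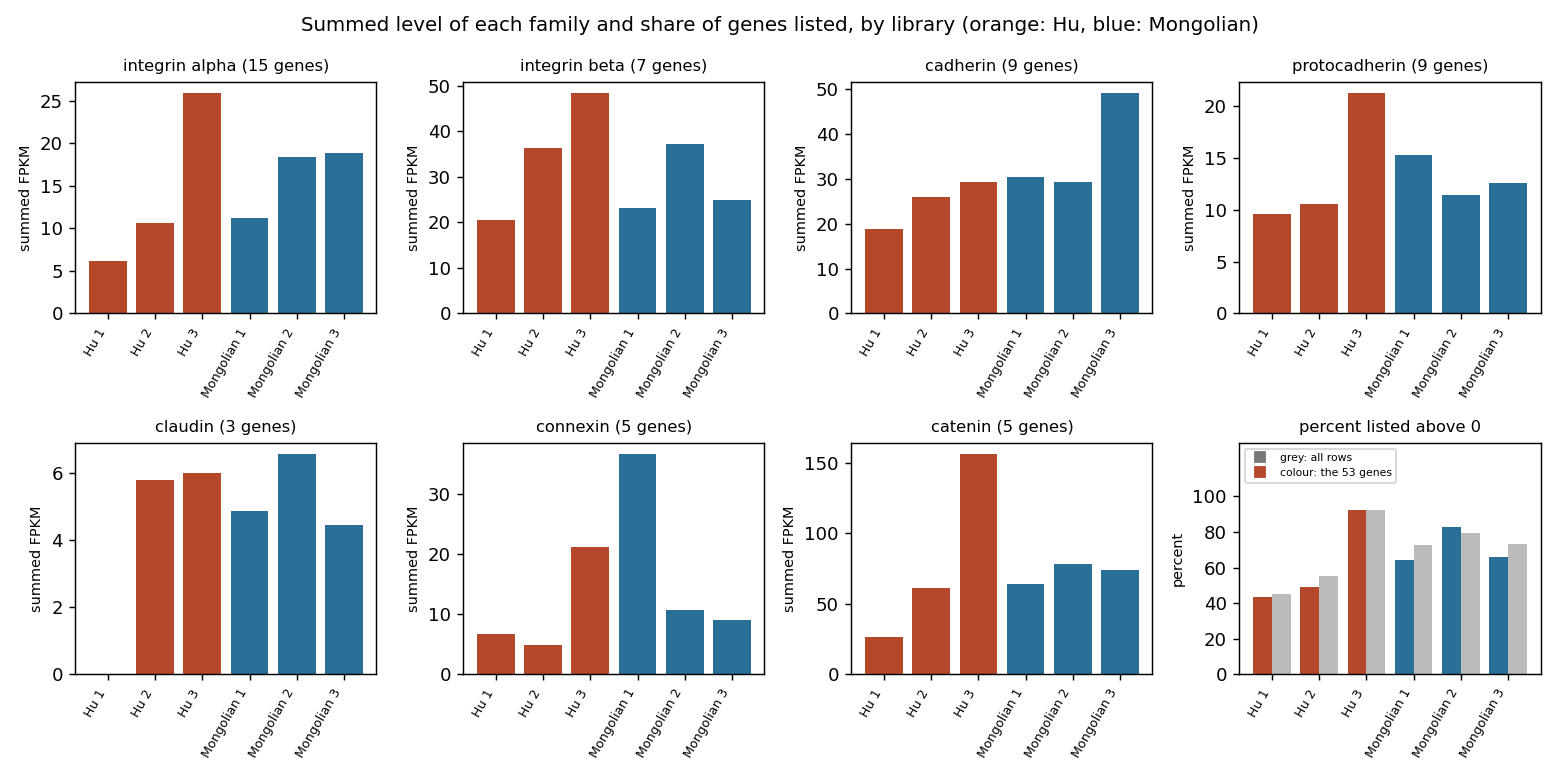
Summed FPKM of each family in each library (bars, Hu left, Mongolian right) and, in the last panel, the percent of the 53 genes and of all 14480 rows listed above 0. Hu 3 has the highest sum in the integrin, protocadherin and catenin panels and Hu 1 the lowest, Mongolian 3 leads in cadherins, and Mongolian 1 in connexins.

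Summed over families, the lowest and the highest library were often both Hu. Catenins, integrin alpha and integrin beta subunits and protocadherins were highest in Hu 3 and lowest in Hu 1 of all 6 libraries. Integrin beta subunits summed to 20.4, 36.3 and 48.3 FPKM in Hu ovaries, against 23.1, 37.2 and 24.8 FPKM in Mongolian ovaries, and cadherins to 18.8, 25.99 and 29.3 FPKM in Hu ovaries, against 30.5, 29.3 and 49.02 FPKM in Mongolian ovaries, which were highest in Mongolian 3. Connexins summed to 6.74, 4.901 and 21.1 FPKM in Hu ovaries, against 36.7, 10.7 and 9.11 FPKM in Mongolian ovaries, highest in Mongolian 1 and lowest in Hu 2. All 53 genes together summed to 88.4, 155 and 308 FPKM in Hu ovaries, against 186, 192 and 193 FPKM in Mongolian ovaries, that is 0.02502, 0.0352 and 0.0685% of the summed gene FPKM in Hu and 0.0378, 0.0389 and 0.0341% in Mongolian. Hu 3 was thus highest and Hu 1 lowest on both scales, and the 3 Mongolian libraries lay between them. The 2 most abundant rows of each library held 74.3, 76.5 and 53.3% of the summed gene FPKM in Hu. In Mongolian they held 75.1, 74.2 and 79.7%. The percentages therefore depend largely on those rows, which were least dominant in Hu 3, and the order on that scale is a description only.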

How the data were processed

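Values are FPKM per gene, as deposited by the authors, in a column per library. No aligner, counter, strand setting, build or filter can be named, since these were not given in the sources used here. Per the labels' protocols, 1 μg of total RNA went into each SMARTer library. Columns were matched to samples by the codes in the sample descriptions, and breed and replicate come from the titles. Low values (under 2 FPKM) showed no whole-read steps: in no library pair did more than 0.566% of genes fall in one 0.2% bin of the ratio. Read numbers were therefore not recoverable and count models were not applied. Identical values above 0 in different libraries numbered 0.

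Rows that reached 0.5 FPKM in 3 or more libraries were tested on log2(FPKM + 1), a scale that understates changes of low genes, with limma 3.58.1 in R 4.3.3 (lmFit, then eBayes with trend; a two-sided test of breed, no covariate) and Benjamini-Hochberg adjustment over all 9971 rows. The script was checked on simulated data with a smaller spread than observed and large changes planted in genes above the median level. That check does not show what the fit could detect at the observed spread. P-values measure the spread between these libraries, which may be technical. Members, lists and alternatives were chosen with earlier results of these data known. Log2 differences are printed, within each family, for the 3 tested members of highest mean level and the 3 of smallest p (24 genes), and of each list up to 4 abundant members are named. A list of platelet and red cell markers had 0 genes listed by symbol. Other lists, of theca and luteal, smooth muscle and pericyte markers, summed to 132, 31.8 and 190.1 FPKM in Hu ovaries, against 32.7, 26.4 and 424 FPKM in Mongolian ovaries, and to 559.7, 673 and 1409 FPKM in Hu ovaries, against 878, 699.6 and 841 FPKM in Mongolian ovaries. The values of 1 connexin are not reported here. No sequence is printed, and lncRNAs were not used. Figures were drawn with matplotlib 3.10.9.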

Additional observations from a re-analysis of the deposited data

How the results depend on the processing

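Depth is unknown, and 3 libraries per breed left wide intervals. No member was called under any alternative run (other pseudocounts, filters, scalings, eBayes without a trend, array weights, the replicate block, and leaving out libraries). The lowest adjusted p of a member was 0.0565 in limma with array weights. Over all genes, array weights called 633 genes, leaving out Hu 1 and Hu 3 together 6, and leaving out 1 library 0 to 4 (2 without Hu 2 and 4 without Hu 3). The samples' numbers do not pair them by the labels, and deviations of same-numbered libraries correlated at -0.013, -0.03 and -0.18; with the replicate block 0 genes and 0 members were called, and no other call changed.

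The 8 tested members higher in Hu became 19 of 53 without a filter, 3 of 9 with a filter at 5 FPKM and 14 of 31 after quantile normalization, and 7 to 13 when 1 library was left out (13 without Hu 2). The 5 members with all Hu values below became 1 after quantile normalization (5.61% of all genes tested), 2 after rescaling to equal sums (3.81%), 15 or 48.4% without Hu 1 and Hu 3 (42.6%), and 5 to 12 when 1 library was left out (7.6% to 32%; 12 without Hu 3); they were 5 after rescaling without the 2 most abundant rows, and all alternatives for this count were added once the values were known. Fewer samples make such separation easier, and the other causes were not tested.

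Of 24 named log2 differences, 16 kept their sign in every alternative run that held the gene and 8 did not. The replicate block, the fit without a trend and the other filters cannot change a log2 difference. CDH24, ITGA5, ITGA3, PCDH17, CTNND2 and ITGB4, all among the 16, were listed at 0 in Hu 1 and Hu 2. In every Mongolian library they were above 0, so their sign was largely fixed. The count of 16 is a description only. With a pseudocount of 0.1 or 0.01 GJA4 was -0.49 and -0.81. After median-of-ratios scaling CTNNA1, GJA4 and CTNNB1 were 0.031, -0.0019 and 0.13, after quantile normalization ITGB8, GJA5, ITGA9 and ITGAV were 0.053, 0.28, 0.17 and 0.26, and after rescaling to equal sums ITGA9, CTNNA1, ITGAV and CTNNB1 were 0.037, 0.18, 0.095 and 0.29. CLDN11 was 0.28 with array weights and 0.58 without Hu 1 and Hu 3. With 1 library left out the ranges were -0.86 to 0.53 for CLDN11, -0.61 to 0.32 for CTNNA1, -0.56 to 0.14 for ITGAV, -0.76 to 0.71 for CTNNB1, -0.69 to 0.28 for GJA5, -0.48 to 0.16 for ITGA9, -0.73 to 0.79 for GJA4 and -0.73 to 0.066 for ITGB8.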
